A study of Mus musculus with 2 samples.

Results

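The cells described here are the hepatic stellate cells (HSCs) with the strongest combined signal of Clstn2, Lsamp, Notch3 and Nmnat2, taken from single-cell RNA-seq of HSCs from fibrotic mouse liver. They number 809 of 8092 stellate cells in the p16-LRTD library and 684 of 6837 in the p16-Alb-LRTD library, or 1493 of 14929 in all. They were chosen by measured values. Barcodes within the limits on mitochondrial share, genes and UMIs (unique molecular identifiers, counted RNA molecules) were kept as stellate cells when Lrat, Ecm1, Hgf and Reln together made up at least 15 of every 10000 UMIs. Each cell then received a score, the mean over the 4 markers of the natural log of 1 plus the count per 10000 UMIs, and the upper 10% of each library were taken. The 10% is thus fixed by the rule, and the share of such cells cannot be compared between libraries from it.

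The study asked how removing p16-expressing hepatocytes affects HSCs in liver fibrosis. Both groups were heterozygous male mice on a C57BL/6 background that carried p16-CreERT2 and the R26-CAG-LSL-RSR-tdTomato-2A-DTR allele, and both were given CCl4 for 4 weeks, tamoxifen and diphtheria toxin. p16-Alb-LRTD mice also carried Alb-DreERT2, a tamoxifen-dependent recombinase driven by the albumin promoter of hepatocytes. The toxin receptor lies behind both a loxP and a rox stop, so its expression needs both recombinases, and p16-LRTD mice lack the second of them. HSCs were isolated by enzymatic perfusion and a Nycodenz density gradient. The groups contain no untreated or vehicle library, and the age and number of mice in each library were not given in the sources used here. With 1 library per genotype there is no replicate, so no test between genotypes was possible. Levels are given as CPM (UMIs of a gene per 1000000 UMIs summed over a group of cells) and as log2 ratios with 95% intervals, which cover counting error only and say nothing of the spread between mice or libraries. Levels of different genes are not set against each other.

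HSCs lie in the space between the liver's endothelium and its hepatocytes, store vitamin A, and are regarded as the pericytes of the sinusoids. Pericytes and vascular smooth muscle cells together form the mural cells that wrap vessels. Notch3 is a receptor of mural cells that is activated by Jagged and Delta ligands on neighbouring cells. Once cleaved, its intracellular part enters the nucleus, joins the DNA-binding protein Rbpj and switches on Hes and Hey repressors, among them Heyl. Clstn2 encodes calsyntenin 2, a cadherin-family protein of synapses. Lsamp encodes a GPI-anchored adhesion protein of the immunoglobulin family, and Nmnat2 an NAD-synthesising enzyme known for preserving axons.

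The libraries held 193746596 and 162219167 UMIs in 11149 and 8806 barcodes, and 95 barcode sequences occurred in both. A shared sequence was carried by 2 members in p16-LRTD and 3 in p16-Alb-LRTD, and none was a member in both. The members' summed counts were 11335215 UMIs in p16-LRTD and 13197793 in p16-Alb-LRTD. p16-LRTD members were shallower than the remaining stellate cells, with a median of 13451 against 17682 UMIs. p16-Alb-LRTD members were not, at 18615 against 18302. The median mitochondrial share of members was 2.22% and 2.07%, and the 4 stellate genes of the gate made up a median 73.7 and 85.4 of every 10000 UMIs in members against 86.7 and 97.0 in the other cells.

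The score had no gap at the limit. The lowest member scored 1.633 in p16-LRTD and 0.9248 in p16-Alb-LRTD, and the highest cell left out scored 1.632 and 0.9246. Within 0.05 of the limit lay 77 cells below and 76 above in p16-LRTD, and 101 below and 78 above in p16-Alb-LRTD. The members are thus a range of the score set by the rule, and whether they form a separate type was not tested. The score was 0 in 2122 p16-LRTD cells (26.2%) and 2832 p16-Alb-LRTD cells (41.4%), and reached 2.96 and 2.47 at most. When the p16-LRTD limit was applied to both libraries, 78 cells of p16-Alb-LRTD passed, or 1.14% (exact binomial interval 0.903 to 1.42%), against 10.0% of p16-LRTD cells. With each cell thinned to 5000 UMIs the shares were 0.996% and 8.53%. When the p16-Alb-LRTD limit was applied, 2353 cells of p16-LRTD passed, or 29.1% against 10.0%. At either limit the p16-Alb-LRTD library held the smaller share of high-scoring cells.

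**Figure D1:**
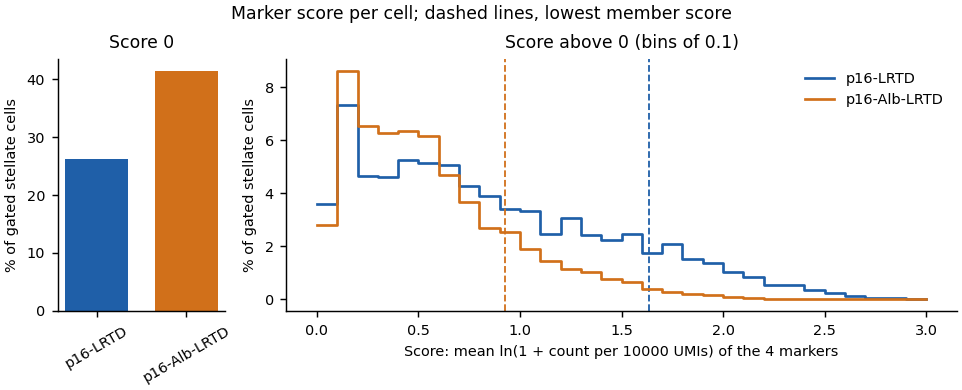
Share of stellate cells (% of each library) with a score of 0, and in score bins of 0.1 above 0, with the score (mean natural log of 1 plus the count per 10000 UMIs over 4 markers) on the horizontal axis and the lowest member's score as a dashed line. The lines lie at 1.63 in p16-LRTD and 0.925 in p16-Alb-LRTD, and the shares run on without a gap across them.

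The rule's own genes are given as a description. Notch3 was at 318 CPM in p16-LRTD members and 85.7 CPM in p16-Alb-LRTD members, against 17.9 and 5.21 CPM in the other stellate cells. Clstn2 was at 852 and 329 CPM in members, and at 62.8 and 11.8 CPM in the others. Nmnat2 was at 303 and 99 CPM in members, and at 26.3 and 7.29 CPM in the others. Lsamp, the most widely detected of the markers, was at 2931 and 1799.6 CPM in members and at 636 and 274 CPM in the others. All 4 were higher in p16-LRTD than in p16-Alb-LRTD, in members and in the other cells alike. In the mm10 genome, by GENCODE vM21, Notch3 lies on the minus strand of chromosome 17 from 32120820 to 32166852, Clstn2 on the minus strand of chromosome 9 from 97444395 to 98033181, Lsamp on the plus strand of chromosome 16 from 39984361 to 42181679, and Nmnat2 on the plus strand of chromosome 1 from 152954993 to 153119261.

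Most p16-LRTD members carried every marker, and most p16-Alb-LRTD members did not. UMIs of all 4 markers were present in 653 p16-LRTD members (80.7%) and 241 p16-Alb-LRTD members (35.2%), against 5.74% and 0.309% of the other cells. A further 153 and 308 members carried 3 markers, 3 and 130 members carried 2, and 5 p16-Alb-LRTD members carried 1. At 5000 UMIs per cell, Notch3 was detected in 67.5% of p16-LRTD members and 26.0% of p16-Alb-LRTD members (86.8% and 54.4% without thinning). In the other stellate cells it was detected in 7.30% and 2.24%. Barcodes with Kupffer cell (liver macrophage) markers should lack Notch3, and served as the measure of free RNA. Among them Notch3 was found in 1 of 282 thinned p16-LRTD barcodes (0.355%) and 0 of 188 p16-Alb-LRTD barcodes, which allows a share of up to 1.60% by 3 counts of the total (exact binomial upper limit 1.94%). Median depths before thinning were 20537 and 25802 UMIs in the Kupffer-marker barcodes, above those of the members.

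Detection of the markers overlapped in cells. Among all stellate cells thinned to 5000 UMIs, Notch3 was detected in 36.4% of the p16-LRTD cells with Clstn2 and 5.32% of those without. In p16-Alb-LRTD the shares were 20.8% and 2.80%. Clstn2 was in turn detected in 70.3% of p16-LRTD cells with Notch3 and 18.9% of those without, and in 45.4% and 8.37% in p16-Alb-LRTD. Each marker was also read in cells chosen without it, the upper 10% by the other 3. In these cells Notch3 stood 3.29 log2 units above the rest in both libraries, Clstn2 3.16 in p16-LRTD and 3.47 in p16-Alb-LRTD, Nmnat2 3.05 and 3.09, and Lsamp 1.93 and 2.12. The cells chosen by 3 markers included 82.7 to 87.3% of the p16-LRTD members and 79.1 to 90.1% of the p16-Alb-LRTD members. Since the markers were chosen with earlier results of these data known, this overlap describes the chosen set and supports nothing further.

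Other Notch receptors and ligands were higher in members in both libraries. Jag1, which encodes the ligand Jagged 1, was at 179 CPM in p16-LRTD members and 91.5 CPM in p16-Alb-LRTD members, against 64.3 and 40.8 CPM in the other cells. The log2 ratio was 1.48 (1.41 to 1.55) and 1.17 (1.07 to 1.26). Dll4, a Delta-type ligand best known from endothelium, was at 19.0 and 10.9 CPM in members and 7.95 and 3.25 CPM in the others. The receptor Notch2 was at 92.5 and 66.5 CPM against 50.5 and 46.8, and Notch1 at 193 and 171 CPM against 137 and 124. Of the 8 receptors and ligands listed, 4 besides Notch3 reached 5 CPM in members or other cells, and the log2 ratio reached a 1.5-fold difference for 3 of them in p16-LRTD and 2 in p16-Alb-LRTD. Across all genes at that level, 6.86% in p16-LRTD and 5.36% in p16-Alb-LRTD were higher in members by 1.5-fold. Since members were chosen on this same contrast, these counts describe the members and support nothing further. Dll1 and Jag2 were under 1 CPM in members.

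Targets of Notch differed among themselves. Heyl, on the plus strand of chromosome 4 from 123233556 to 123249875, was at 294 CPM in p16-LRTD members and 103 CPM in p16-Alb-LRTD members, against 103 and 32.5 CPM in the others (log2 1.52, 1.46 to 1.57, and 1.66, 1.57 to 1.75). The level in p16-Alb-LRTD members was thus that of the other cells of p16-LRTD. At 5000 UMIs, Heyl was detected in 75% and 37.5% of members and 34.9% and 13.6% of other cells, against 1.77% of Kupffer-marker barcodes in p16-LRTD and 0 of 188 in p16-Alb-LRTD. Hey2 was at 22.5 and 9.85 CPM in members against 6.23 and 4.90 CPM. Hes1, a Notch target that also answers to other signals, was at 189.9 and 351 CPM in members and 198 and 325 CPM in the others, with log2 ratios of -0.06 and 0.11. Hey1 was at 6.26 and 4.47 CPM in members. Of the targets at 5 CPM or more, 2 of 4 in p16-LRTD and 3 of 3 in p16-Alb-LRTD had intervals above 0. The 13 measured genes of Notch processing and nuclear partners, which include Rbpj, had a median log2 ratio of 0.04 and 0.10, beside 0.04 and 0.04 over all genes. None of them differed by 1.5-fold in either library. Of all genes, 6.86% and 5.36% were higher by that fold and 7.43% and 4.82% lower.

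The label pericyte-like was checked against 21 pericyte genes, of which 16 reached 5 CPM. Their median log2 ratio was 0.64 in p16-LRTD and 0.60 in p16-Alb-LRTD. Higher in members by 1.5-fold were 9 and 8, beside 6.86% and 5.36% of all genes. Lower by that fold were 2 and 0, beside 7.43% and 4.82%. Summed per cell, the pericyte genes made up a median 57.0 and 55.5 of every 10000 UMIs in members against 60.1 and 50.4 in the others. That sum was thus lower in p16-LRTD members and higher in p16-Alb-LRTD members. Vtn, which encodes vitronectin, was at 159.9 and 87.8 CPM in members against 31.3 and 13.0 CPM. Ebf1, a transcription factor of mural cells, was at 16.8 and 9.70 CPM against 1.78 and 1.68. Ndufa4l2, a mitochondrial complex component that is enriched in pericytes, was at 205 and 123 CPM against 71.2 and 36.9. Cd248 (endosialin) was at 85.8 and 51.5 CPM against 30.9 and 15.4, and Rgs4, which shortens G-protein signals, at 223 and 166 CPM against 90.9 and 38.9. Pdgfrb, the platelet-derived growth factor receptor of mural cells, was at 568 and 339.6 CPM against 357 and 216.

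Other genes by which pericytes are commonly defined were lower in members, differed in direction between libraries or were too low to compare. Rgs5 was lower in members, at 1269 and 1586 CPM against 2368 and 1945 CPM, a log2 ratio of -0.90 and -0.29. Abcc9, the sulfonylurea receptor subunit of vascular potassium channels, was lower as well, at 676 and 972 CPM against 1053 and 1152. Its channel partner Kcnj8 was at 103 and 119.6 CPM against 124 and 97.2, on opposite sides in the 2 libraries. Under the level of 5 CPM, where no ratio is given, Cspg4 (NG2) was at 3.18 and 2.20 CPM in members, Anpep (CD13) at 1.85 and 3.26 CPM, and Higd1b at 0.265 and 0.152 CPM. Tbx18 gave 0 and 1 UMIs in members and Ebf2 gave none. By these genes the cells are stellate cells with part of a pericyte profile, and they are called by their marker genes here.

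Contractile genes were mostly higher, while 3 genes of differentiated smooth muscle gave no UMI. Of 15 listed genes 11 reached 5 CPM, with a median log2 ratio of 0.59 and 0.61, and 6 were higher by 1.5-fold in each library, beside 6.86% and 5.36% of all genes. Myh11, the myosin heavy chain of smooth muscle, was at 565 and 245 CPM in members against 117 and 54.4 CPM (log2 2.28, 2.23 to 2.32, and 2.17, 2.11 to 2.23). It was detected at 5000 UMIs in 85.0% and 63.9% of members, 35.6% and 18.9% of other cells, and in 0 of 282 and 1 of 188 Kupffer-marker barcodes, where 0 allows a share of up to 1.06% by 3 counts of the total (exact binomial upper limit 1.30%). Lmod1, which nucleates actin filaments in smooth muscle, was at 31.9 and 8.18 CPM against 5.63 and 1.91. Cald1 (caldesmon) was at 2846 and 1764 CPM against 1291 and 1057, and Tagln (transgelin) at 883 and 484 CPM against 585 and 414. Mylk, the myosin light chain kinase, was close to the other cells at 649.9 and 641 CPM against 605 and 676. Acta2, the smooth muscle actin used as a mark of HSC activation, was lower in members at 33.7 and 9.17 CPM against 45.9 and 12.7 CPM. At 5000 UMIs it was detected in 6.34% and 2.35% of members and in 5.36% and 1.64% of other cells, so the share of cells with a UMI did not follow the level. Cnn1, Actg2 and Myocd, the 3 without signal, gave 0 UMIs in members of either library.

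Genes that set vessel tone were mostly higher, with a median log2 ratio of 0.58 and 0.57 over 19 of 21 listed genes. In each library 9 were higher by 1.5-fold, beside the same 6.86% and 5.36% of all genes. Lower were 3 and 2, of which 1 and 0 by 1.5-fold, beside 7.43% and 4.82% of all genes. The list shares genes with the pericyte list, among them Gucy1b1 and Abcc9. Cacna1c, the pore of the L-type calcium channel, was at 357 and 239 CPM in members against 60.7 and 71.2 CPM. The prostaglandin E receptor gene Ptger3 was at 76.0 and 27.1 CPM against 12.2 and 4.20. Adra1b, an alpha-1 adrenergic receptor, was at 107 and 55.2 CPM against 52.1 and 28.7. Prkg1, the cyclic GMP-dependent kinase, was at 5354 and 4597 CPM against 2577 and 2757, and Pde3a, a phosphodiesterase that breaks down cyclic AMP, at 1747 and 1144 CPM against 873 and 717. Gucy1b1, a subunit of the nitric oxide receptor, was at 672 and 527 CPM against 384 and 338. Receptors for endothelin (Ednrb, 1175 and 1259 CPM against 793 and 926) and angiotensin (Agtr1a, 864 and 1062 CPM against 579.5 and 807) differed less.

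Across all genes at 20 CPM or more in members or other cells of each library, 234 of 6670 (3.51%) were higher in members by 1.5-fold in both libraries and 251 (3.76%) were lower. The same filter applied to cells of 10000 to 30000 UMIs gave 243 and 261. Rgs6, a regulator of G-protein signals, led the higher genes at 62.1 and 51.8 CPM against 5.34 and 3.60 CPM. Kcnk3, a background potassium channel of vascular smooth muscle, was at 80.3 and 36.2 CPM against 8.59 and 3.85. Rbfox1, a splicing regulator of neurons and muscle, was at 98.5 and 23.6 CPM against 7.11 and 3.45. Mest, an imprinted gene, was at 714 and 206 CPM against 103 and 35.0. Col8a1, a short-chain collagen of vessel walls, was at 80.8 and 29.8 CPM against 13.2 and 4.50. Procr, the endothelial protein C receptor, was at 117 and 59.6 CPM against 18.3 and 11.6. It was also detected in 9.22% and 11.7% of Kupffer-marker barcodes. The lipid phosphatase gene Inpp4b was at 42.1 and 22.5 CPM against 4.34 and 4.00. The sodium channel gene Scn3a was at 67.7 and 60.5 CPM against 11.1 and 14.5. The glucagon receptor gene Gcgr was at 80.6 and 47.6 CPM against 20 and 9.97. The further genes named by the rule were Tmem178, Shroom3, the latrophilin gene Adgrl3, and Ptger3, Vtn and Myh11 from above, with log2 ratios between 1.83 and 2.75.

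Clstn2 and Lsamp are synaptic adhesion genes, and some other genes of this kind were also high. Nrxn3, which encodes a presynaptic adhesion receptor, was at 2640.0 CPM in p16-LRTD members and 2047 CPM in p16-Alb-LRTD members, against 1262 and 894 CPM in the others. Ntm (neurotrimin), in the same family as Lsamp, was at 1355 and 1036 CPM against 707 and 472, and Cadm1 at 126 and 61.9 CPM against 50.7 and 24.0. The neural adhesion gene Ncam1 went the other way, at 1.15 and 0.758 CPM against 32.7 and 11.3, as did Sdk2 at 9.26 and 12.1 CPM against 63.1 and 79.8. Of 35 listed genes 19 and 17 reached the level, with a median log2 ratio of 0.17 and 0.11. They went both ways, with 7 and 6 higher by 1.5-fold, beside 6.86% and 5.36% of all genes, and 4 and 2 lower, beside 7.43% and 4.82%. The NAD list had medians of -0.01 and -0.04. Among it, Nmnat1 and Nmnat3, the sister enzymes of Nmnat2, were under 10 CPM in every group.

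The genes lower in members included fibrillar collagens and genes of other stellate subsets. Dpt (dermatopontin, an extracellular matrix protein) was at 2.38 and 1.14 CPM against 63.7 and 31.5. Wt1, a transcription factor of the mesothelium and of embryonic stellate progenitors, was at 0.882 and 1.74 CPM against 46.2 and 46.0. Alcam, an adhesion gene, was at 39.2 and 23.0 CPM against 375 and 342. The others named by the rule were Spon2, Svep1, Scube1, Grid1, Inmt, Fam180a and Podn, with log2 ratios between -5.15 and -2.84. Of the 14 activation genes, 9 were lower by 1.5-fold in p16-LRTD and 6 in p16-Alb-LRTD, beside 7.43% and 4.82% of all genes. Their medians were -1.39 and -0.44. In p16-LRTD 1 of them was higher and in p16-Alb-LRTD 5 were, with intervals above 0. Summed per cell, they made up a median 78.8 and 64.9 of every 10000 UMIs in members against 101 and 60.8 in the others. That sum was thus higher in p16-Alb-LRTD members. Col1a1, a chain of type I collagen, was at 194 and 135 CPM against 2047 and 525, and Col3a1 at 980.3 and 762 CPM against 4243 and 1367. Timp1, an inhibitor of matrix proteases, was at 17.4 and 14.5 CPM against 57.0 and 19.2. Fn1 (fibronectin) was higher in members, at 1369 and 1011 CPM against 880.1 and 560.3 CPM.

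Basement membrane genes were divided. Col4a1 was at 2056 and 1469 CPM in members against 1238 and 851, Lamc1 at 865 and 585 CPM against 485 and 379.8, and Lama2 at 247 and 196 CPM against 88.5 and 94.1. These encode type IV collagen and laminin chains. Sparcl1, a matrix-associated glycoprotein, was lower at 114 and 142 CPM against 334 and 446, and Col4a5 was at 1.59 and 0.455 CPM against 16.5 and 10.6. The list's median was 0.36 in p16-LRTD and 0.26 in p16-Alb-LRTD. The genes of general stellate identity had medians of 0.31 and 0.12, beside 0.04 and 0.04 over all genes. Summed per cell, they made up a median 285 and 303 of every 10000 UMIs in members against 313 and 338 in the others, the other way. Lrat, which esterifies vitamin A, was at 1280.3 and 1249 CPM against 1292 and 1516, and Colec11, a soluble lectin of HSCs, at 4406 and 3839 CPM against 3077 and 2545.

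Stellate cells near the portal vein and near the central vein differ in expression, and the members sat on the portal side of the 4 genes listed for each. Ngfr, a nerve growth factor receptor of portal HSCs, was at 364 and 264 CPM in members against 156 and 109 CPM. Il34, a macrophage growth factor, was at 473 and 526 CPM against 213 and 254, and Igfbp3 at 2208 and 1529 CPM against 1364 and 1177. The remaining portal gene was Tagln, which is also counted above with the contractile genes. All 4 portal genes were higher in both libraries, by 1.5-fold for 4 in p16-LRTD and 2 in p16-Alb-LRTD. All 4 central genes were lower by that fold in both. Over all genes, 6.86% and 5.36% were higher by 1.5-fold and 7.43% and 4.82% lower. Of all genes at 5 CPM, 5837 of 10613 and 6048 of 10408 were higher in members by any amount. Adamtsl2, a matrix protein of central HSCs, was at 10.1 and 31.6 CPM against 191 and 153, and Rspo3, a Wnt amplifier, at 276 and 441 CPM against 622 and 747. Position in the lobule was not measured.

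**Figure D2:**
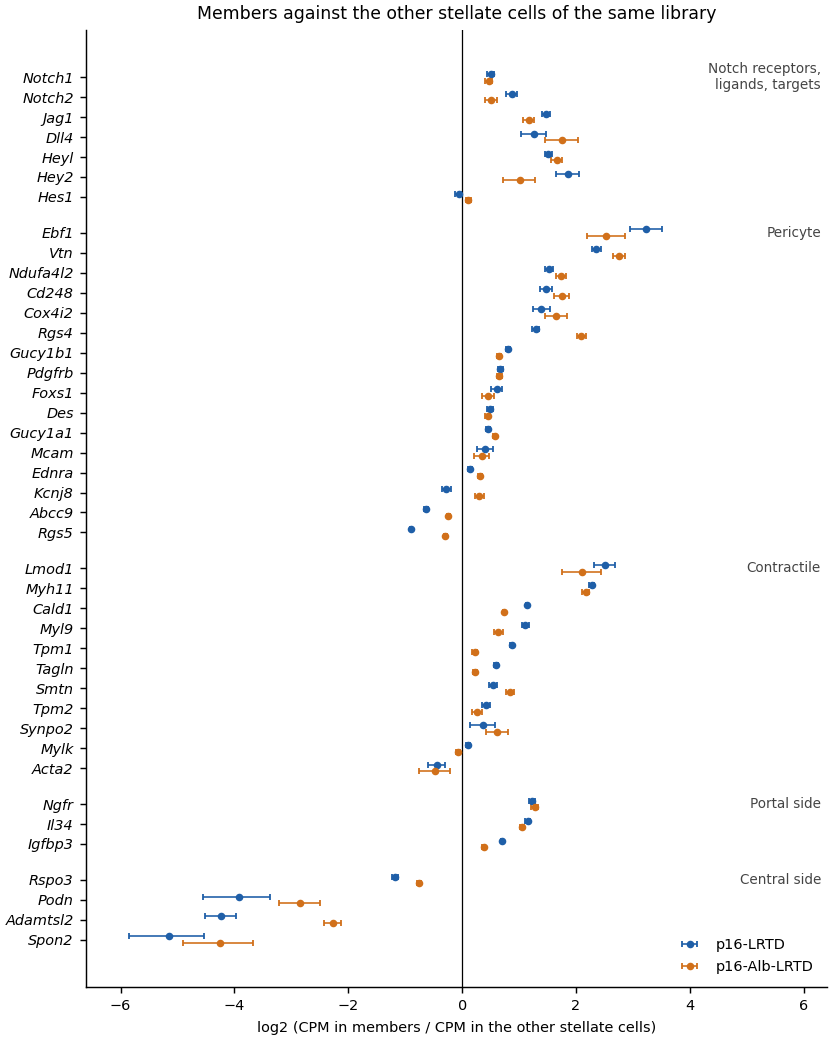
Log2 ratio of CPM in members over CPM in the other stellate cells of the same library (horizontal) for listed Notch, pericyte, contractile, portal-side and central-side genes (1 gene per line), with 1 point per library and bars for the 95% counting interval. Vtn lies at 2.36 and 2.75 and Myh11 at 2.28 and 2.17, Rgs5 lies below 0 in both libraries at -0.90 and -0.29, and Adamtsl2 at -4.23 and -2.28.

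Levels followed the score by degrees, as the plot by score group shows. The other cells with a score above 0 were divided into 3 equal groups, low, middle and high, beside the cells at 0 and the members. Heyl in p16-LRTD was at 50.4 CPM in cells at 0, then 74.4, 116 and 199 CPM, and 294 CPM in members. In p16-Alb-LRTD it was at 18.5, 32.2, 39.1, 57.9 and 103 CPM in the same order. Myh11 went from 32.1 to 565 CPM and from 23.4 to 245 CPM, and Vtn from 2.69 to 159.9 CPM and from 2.98 to 87.8 CPM. Rgs5 took another course. It was at 1955, 2562, 2972, 2036 and 1269 CPM in p16-LRTD and at 1658, 2057, 2309.9, 2121 and 1586 CPM in p16-Alb-LRTD, highest in the middle group of both. Acta2 was lowest in the middle group, at 15 and 2.78 CPM, and above that in members. Col1a1 was at 3882 and 757 CPM in cells at 0 and at 194 and 135 CPM in members, and Adamtsl2 went from 329 to 10.1 CPM and from 199 to 31.6 CPM. Hes1 stayed between 186 and 211 CPM in p16-LRTD and between 320.3 and 351 CPM in p16-Alb-LRTD. The median depth was lowest in the members in p16-LRTD. In p16-Alb-LRTD it was lowest in the cells at 0 and highest, at 19508 UMIs, in the high group.

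**Figure D3:**
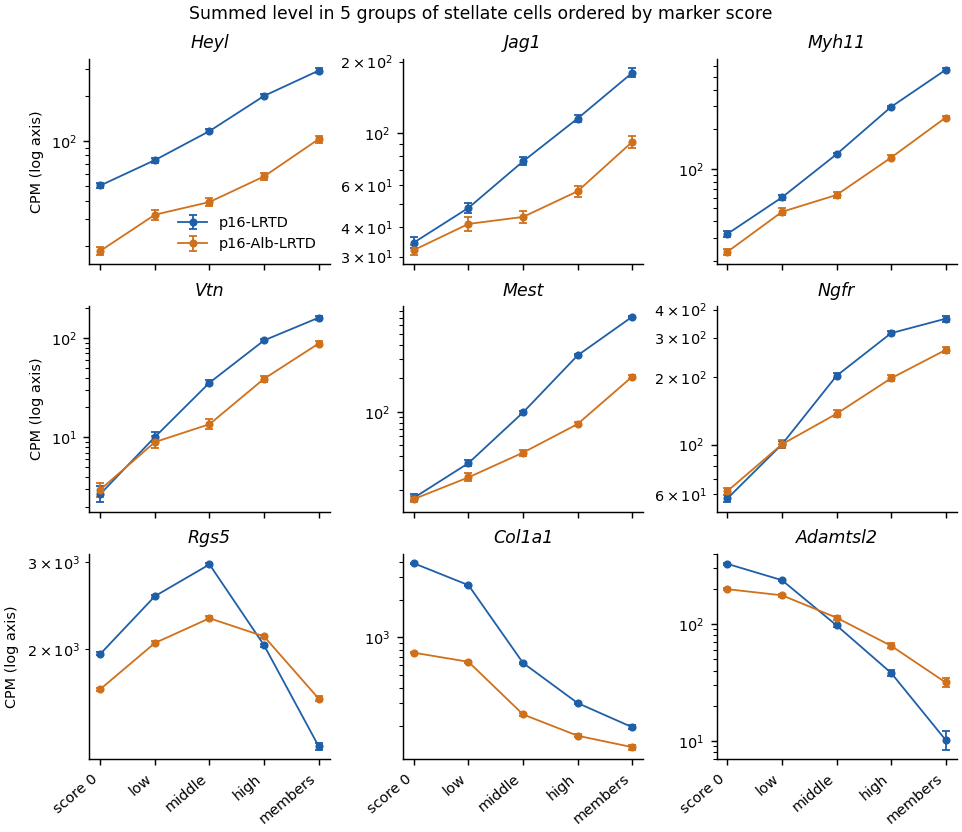
Level in CPM (log axis, with its own range for each gene) of 9 genes in stellate cells grouped by score (at 0, low, middle, high, members), with 1 line per library and bars for the 95% counting interval. Heyl and Myh11 are higher in each group than in the one before, Rgs5 is highest in the middle group, and Col1a1 is lower in each group than in the one before.

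Members also varied among themselves. They were divided at the middle of the score, into 404 and 405 cells in p16-LRTD and 342 and 342 in p16-Alb-LRTD. Rgs5 was lower in the upper group by a log2 ratio of -0.35 in p16-LRTD and -0.37 in p16-Alb-LRTD. Col1a1 was lower too, at -1.15 and -0.48. Mest was higher in the upper group, at 0.41 and 0.81, as was Myh11 at 0.43 and 0.47. Heyl differed little in p16-LRTD, at 0.16 (0.06 to 0.26), and more in p16-Alb-LRTD, at 0.53 (0.38 to 0.69). Ngfr was near level in p16-LRTD at 0.02 and higher in p16-Alb-LRTD at 0.26.

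Markers of other cell types were summed over the members. The 8 endothelial genes summed to 325 CPM in p16-LRTD members and 445 CPM in p16-Alb-LRTD members, against 214 and 250 CPM in the other cells, with none at 0. Clec4g, a sinusoidal endothelial lectin, was at 132 and 107 CPM against 36.4 and 32.2. It was the only one of the 8 higher by 1.5-fold in p16-LRTD, where the list's median log2 ratio was 0.14 and 2 genes were lower. In p16-Alb-LRTD the median was 0.62, with 4 higher by 1.5-fold. The shares over all genes were 6.86% and 5.36%. The median member carried 0.927 and 0.583 endothelial UMIs per 10000, and the median other cell none. Their part in the members' profile was not tested. Without cells that had over 5 UMIs of the endothelial and Kupffer lists together, 238 genes were higher and 253 lower in both libraries. Kupffer genes summed to 103 and 35.4 CPM in members against 100.4 and 59.8, and hepatocyte genes to 35.4 and 20.2 CPM against 30.8 and 22.1. Mesothelial genes summed to 1.15 and 2.20 CPM in members against 48.1 and 46.4, with Krt7 and Upk1b at 0 in members of both libraries. Portal fibroblast genes summed to 100.0 and 111 CPM against 219 and 214, with Pi16 at 0 in p16-LRTD members and Mfap4 at 0 in p16-Alb-LRTD members. Schwann cell genes summed to 3.09 and 3.11 CPM with Sox10 at 0, and the 6 lymphocyte genes to 0.441 and 0.530 CPM. Proliferation genes summed to 13.6 and 12.3 CPM in members against 158 and 32.0 CPM in the others.

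The genotypes were then compared within members. Of 6943 genes at 20 CPM or more, 293 (4.22%) were higher by 1.5-fold in p16-Alb-LRTD members and 217 (3.13%) lower. Zbtb16, a zinc-finger repressor induced by glucocorticoids, was at 76.0 CPM in p16-LRTD members and 765 CPM in p16-Alb-LRTD members, a log2 ratio of 3.33 (3.23 to 3.43). Fkbp5, another glucocorticoid-induced gene, was at 92.0 and 363 CPM. The other cells had ratios of the same size for both, 3.46 and 1.94. Angptl4, an inhibitor of lipoprotein lipase, was at 11.9 and 86.9 CPM (2.87, against 1.63 in the other cells). Spon1, an extracellular matrix protein, was at 10.8 and 97.8 CPM (3.18, against 1.18), and Irs2, an adaptor of the insulin receptor, at 20.3 and 102 CPM (2.33, against 0.97). Nr4a1, Herpud1 and Hsph1, genes of the immediate early, endoplasmic reticulum and heat shock responses, had ratios of 2.02, 1.85 and 1.84. The 11 dissociation stress genes were higher in p16-Alb-LRTD members in 11 of 11 cases with a median of 0.86, and in the other cells with a median of 0.69. Beside these, all genes had a median of -0.04 in members, and the part of dissociation in the genotype ratios was not tested.

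Most contractile genes and several Notch genes were lower in p16-Alb-LRTD members. The 4 measured Notch targets had a median of -0.84, which was -0.060 at the common score limit described next. Heyl had a log2 ratio of -1.52 (-1.61 to -1.43), and Jag1 -0.97 (-1.07 to -0.87). Hes1 was higher at 0.89 (0.81 to 0.96). Of the 11 contractile genes 7 were lower by 1.5-fold, beside 4.85% of all genes at 5 CPM, with a median of -0.87. None was higher by that fold, beside 4.94%. Tpm1, which encodes a tropomyosin, was at 883 and 311 CPM (-1.5), and Myh11 had a ratio of -1.20. Mef2c, a transcription factor of muscle, was at 557 and 191 CPM (-1.55). Rbfox1 had a ratio of -2.06, Mest -1.79, Ptger3 -1.49, Col8a1 -1.44, and Adcyap1r1, the receptor gene of the peptide PACAP, -1.47. The pericyte list had a median of -0.39, with 6 of 16 genes lower by 1.5-fold and none higher.

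The members of the 2 libraries had different score limits, so the same ratios were also taken at a common limit. At the p16-LRTD limit (809 and 78 cells) Heyl had a ratio of -1.02 and at the p16-Alb-LRTD limit (2353 and 684 cells) -1.18. Myh11 had -0.74 and -0.65, Tpm1 -1.09 and -1.05, and Mef2c -0.80 and -0.80. Other contractile genes were nearer to level, with Cald1 at -0.32 and -0.33 (-0.69 within members), Tagln at -0.62 and -0.46 (-0.87) and Myl9 at -0.58 and -0.46 (-0.90). Acta2 was at -0.02 and -1.32. Notch3 itself went from -1.89 within members to -0.44 and -0.75. Zbtb16 kept its size, at 3.62 and 3.49, as did Angptl4 at 3.12 and 3.00. Spon1 had 2.51 and 1.87 and Irs2 1.49 and 1.30. Jag1 was at -0.38 and -0.58, Rbfox1 at -1.36 and -0.87, Mest at -0.79 and -1.15, Ptger3 at -0.58 and -0.89, and Adcyap1r1 at -1.23 and -1.11. Col8a1 was level at the p16-LRTD limit, at -0.007 (-0.31 to 0.28), and at -0.50 at the other limit. Col1a1 moved from -0.53 to -1.09 and -0.99. Rgs5 turned from 0.32 within members to -0.22 and -0.15, and Adamtsl2 dropped from 1.64 to 0.61 and 0.16. Of 86 genes compared in this way, 21 had the other sign at either limit and 8 at both, which were Rgs5, Rgs6, Scn3a, Inpp4b, Lgals1, Postn, Podn and Nrarp. Signs were counted at any level and whether or not the interval excluded 0. The intervals of Podn and Nrarp included 0 at both limits, and Nrarp was at 1.32 and 1.82 CPM in members. Rgs6 went from -0.26 within members to 1.11 and 0.82, Scn3a from -0.16 to 0.86 and 0.56, and Inpp4b from -0.90 to 0.52 and 0.04. Kcnk3 (-1.15 within members) was at 0.09 and -0.39, and Procr (-0.97) at 0.04 and -0.21. For these genes the direction or size in members thus depended on where the score limit lay.

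The genotype ratio in members was set against that in the other stellate cells. The difference was above 1.5-fold for 165 of 7232 genes (2.28%) and below for 85 (1.18%). It was not tested, since each ratio rests on 1 library per genotype. Activation genes had a median genotype ratio of -0.29 in members and -1.13 in the other cells. Col1a1 had a ratio of -0.53 (-0.62 to -0.44) in members and -1.96 (-1.98 to -1.95) in the others, and Col3a1 -0.36 and -1.63. Ccnd1 (cyclin D1) was at 38.6 and 116 CPM in members and at 135 and 132 CPM in the others. Its ratio in members was 1.59, and 0.46 and 0.57 at the common limits. Galnt14 had 1.73 in members, and 1.44 and 0.55 at the common limits. Spon1, Irs2, Galnt14 and Lgals1 also had higher ratios in members, with differences of 2.0, 1.36, 1.30 and 1.29. Cyr61, a matricellular gene, was at 472 and 196 CPM in members and at 412 and 396 CPM in the others. Mef2c, Ogn, Ankrd55, Fam13a and Rbfox1 had lower ratios in members, with differences of -1.25, -1.37, -1.21, -1.16 and -1.02. The ratio of Fam13a was 0.11 in members, and 0.68 and 0.62 at the common limits. The contractile list had a median of -0.87 in members and -0.50 in the others, the Notch targets -0.84 and -0.78, and the pericyte list -0.39 and -0.36. Endothelial genes had a median of 0.72 in members and 0.16 in the others, and Kupffer genes -1.55 and -0.88. Their part in these differences was not tested.

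**Figure D4:**
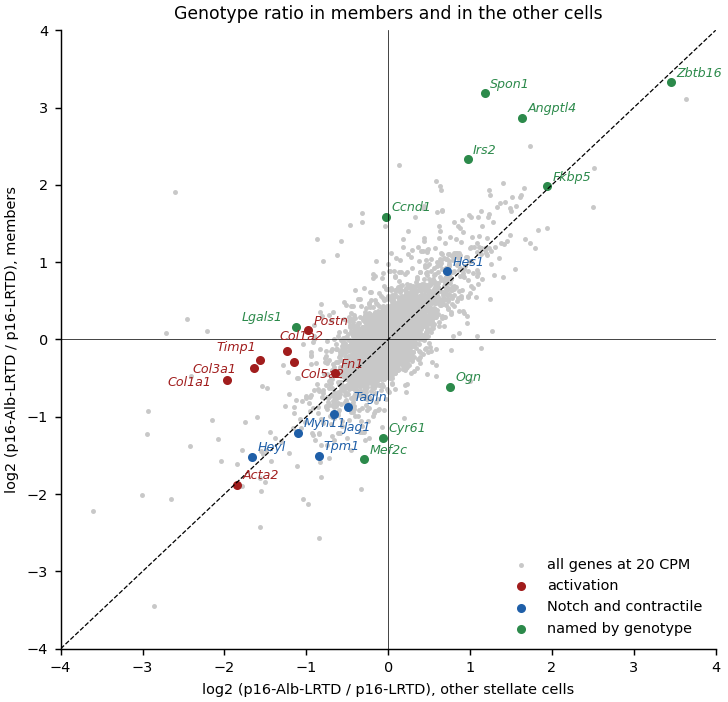
Log2 ratio of p16-Alb-LRTD over p16-LRTD in members (vertical) against that in other stellate cells (horizontal), with 1 point per gene (7230 genes, with 1 outside the axes) and the diagonal drawn. Zbtb16 lies near the diagonal at 3.33 and 3.46, Spon1 and Col1a1 above it, and Mef2c and Ogn below it.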

How the data were processed

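HSC transcriptomes came from 1 p16-LRTD and 1 p16-Alb-LRTD library of the 10x 3' v3.1 chemistry. The deposited matrices hold unnormalised UMI counts for each gene in each barcode, for which the submitters' processing notes name Cell Ranger 7.0.1 and mm10. Everything further was computed here with Python 3.11.15 (numpy 2.4.6, scipy 1.17.1, pandas 2.3.3, matplotlib 3.10.9). Barcodes were kept at a mitochondrial share of at most 5%, 2000 to 7000 genes and at most 50000 UMIs, the limits of the study, which left 9004 and 7416. The gate and score then gave 8092 and 6837 stellate cells and their members. The members and all gene lists were chosen with earlier results of these data known.

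Counts were summed over members and over the other stellate cells and divided by each sum's total (CPM). Ratio intervals are exact conditional binomial, and level intervals exact Poisson, at 95%. Counting at the 3' end may leave reads of overlapping or near-identical genes uncertain. Identifiers of 30934 of 31054 features matched GENCODE vM21, which gave the coordinates. No doublet caller was run, and doublets were limited by the upper bounds on genes and UMIs alone. Kupffer-marker barcodes (285 and 189) held at least 30 Kupffer-list UMIs and at most 5 gate UMIs per 10000.

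Named genes were the 15 with the highest and 10 with the lowest ratio by the weaker library among genes of 20 CPM in each library whose intervals excluded 0, the 8 highest and 8 lowest genotype ratios in members among genes of 50 CPM, and the 6 highest and 6 lowest differences of ratios among genes of 50 CPM in the members of a library whose interval excluded 0. Genes of the rule, gate and lists may also be named. Mitochondrial, ribosomal, haemoglobin, hepatocyte-list, sex-linked and unnamed genes were left out. Alternatives were the share of cells taken, thinning, a split of each cell's UMIs, the score without each marker, the filters on cells and genes, the gate, pooling, depth, other cell types and scaling. A common score limit and members with at least 3 markers were added after seeing the data. Scripts were tested on simulated counts.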

Additional observations from a re-analysis of the deposited data

Results flagged for a closer look

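Between members and the other stellate cells, 202 genes were searched for genotype ratios (p16-Alb-LRTD over p16-LRTD, log2) of opposite sign. Genes counted had both intervals off 0 and a difference of at least 1.5-fold, and 10 were found. Scn3a (-0.16 in members and 0.39 in the other cells) was opposite in sign but fell short of that fold. Ogn, Ankrd55 and Lgals1 had already been named for their large differences, so finding them was partly fixed in advance. Each of the 10 rests on 1 library per genotype, so the difference was not tested. The collagen-organising proteoglycan gene Ogn had a ratio of -0.61 in members and 0.76 in the other cells, a difference of -1.37. Ankrd55 had -1.01 and 0.20, a difference of -1.21. The calcium channel gene Cacna1c had -0.58 and 0.23, a difference of -0.81, and Adgrl1 -0.58 and 0.05, a difference of -0.62. On the other side, Adamtsl2 had 1.64 and -0.32, a difference of 1.958, and Rgs5 0.32 and -0.28, a difference of 0.61. The matrix genes Postn (0.12 and -0.98), Hspg2 (0.43 and -0.45) and Loxl2 (0.18 and -0.43) had differences of 1.10, 0.88 and 0.61, and Lgals1 (0.17 and -1.12) 1.29. At the common score limits of p16-LRTD and p16-Alb-LRTD the ratio among high-scoring cells turned to -0.22 and -0.15 for Rgs5, to -0.42 and -0.04 for Lgals1 and to -0.10 and -0.22 for Postn. It was -0.31 and 0.13 for Loxl2, 0.61 and 0.16 for Adamtsl2, -0.45 and -0.46 for Ogn and -1.76 and -0.80 for Ankrd55.

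The reporter tdTomato, whose allele both genotypes carry, was at 5.23 CPM in p16-Alb-LRTD members (69 UMIs) and 2.21 CPM in p16-LRTD members (25 UMIs). The other stellate cells stood at 5.86 and 3.15 CPM. It is listed because the reporter entered no comparison above, and the difference was not tested.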

How the results depend on the processing

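No paired analysis was possible because there was 1 library per genotype, and for the same reason none could be left out in turn. Recomputed were the gene counts and the medians of the pericyte, contractile, activation and Notch target lists given below, and none of these reversed. Of 86 genotype ratios in members, 21 had the other sign at a common score limit. Of the counts and medians, 176 under the alternatives named at the outset and 19 under those added later stayed within 1.5 times the reported count or within the counting interval of the median, and 28 and 5 moved. The genes named by the rule kept the sign of the ratio they were named for under each of these settings except the changed CPM minimum, for which they were not run. Col8a1 was at -0.007 at the common limit. Genes lower in p16-Alb-LRTD members numbered 140 at double the CPM minimum, against 217. The difference of ratios was higher for 284, 96 and 279 genes at the lower minimum, the double minimum and the common score limit, against 165, and lower for 144, 49 and 215, against 85.

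The pericyte median in p16-LRTD (0.64) was 0.56 with the upper 20% and 0.54 without Notch3 in the score. In p16-Alb-LRTD (0.60) it was 0.67 and 0.46 with the upper 5% and 20%, 0.57 with thinning and at either other CPM minimum, 0.55 under median-of-ratios scaling and 0.75 at the common limit. The contractile median in p16-LRTD (0.59) was 0.68 with the upper 5%, 0.53 with thinning, 0.66, 0.72 and 0.51 without Clstn2, Lsamp and Notch3, 0.63 with the stricter gate, 0.70 from per-cell means, 0.73 in cells of 10000 to 30000 UMIs, 0.56 without cells of over 5 endothelial and Kupffer UMIs and 0.56 under median-of-ratios scaling. In p16-Alb-LRTD (0.61) it was 0.38 with the upper 20%, 0.74 without Lsamp and 0.89 at the common limit. The genotype median of activation genes in members (-0.29) was -0.15 with the upper 5%, -0.093 without Lsamp and -0.12 in cells of 10000 to 30000 UMIs. That of Notch targets (-0.84) was -0.060 at the common limit, where 78 cells stood for p16-Alb-LRTD. The cause of these shifts was not tested.

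Genes of few UMIs, such as Higd1b and Tbx18, cannot be compared at this depth.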
